A study of Rattus norvegicus with 50 samples.

Results

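The genes followed here were Spp1, which encodes the secreted protein osteopontin, and 8 genes that mark lipid-associated macrophages, namely Gpnmb, Trem2, Lpl, Fabp5, Cd36, Lgals3, Apoe and Plin2. They were taken by gene symbol from the gene spots of a rat array, and all 9 were among the 25208 genes that passed the filter on low signal. Spp1 was chosen by its measured difference, being higher in exposed rats at every day, so its values are given as a description without a test. The other 8 were named for their place in the same macrophage state, with earlier results of these data known.

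Lung RNA came from 50 male F344 rats, an inbred laboratory strain, that were 12 weeks old when exposed. Exposed rats breathed an aerosol of TiO2 P25 nanoparticles at 10 mg/m3 through the nose for 6 hours per day, 5 days per week, during 4 weeks, and control rats breathed filtered air in the same way. The accessory lobe was taken from 5 control and 5 exposed rats when exposure ended, called D0, and from as many after 3 days of recovery (D3), 28 (D28), 90 (D90) or 180 (D180). Each rat had its own one-colour array, and every day had its own rats.

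Osteopontin is an acidic phosphoprotein that binds integrins and CD44 and is cut by thrombin and by matrix metalloproteinases. Macrophages that take up much lipid or debris, in fat, in atherosclerotic vessels and in injured or fibrotic lung, are known to share a programme in which TREM2 senses lipids at the cell surface, CD36 and lipoprotein lipase bring fatty acids in, FABP5 carries them, perilipin 2 coats the droplets and apolipoprotein E takes lipid out of the cell. GPNMB is a glycoprotein of lysosomes and the cell surface, and galectin-3, the product of Lgals3, binds sugars and damaged lysosomal membranes.

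Sequences are shown for Spp1, whose differences were the largest of the 9, and for Gpnmb, which had the highest correlation with Spp1 of the 8 genes among exposed rats. The array read Spp1 with a probe of 60 bases at chr14:6422382-6422441 on the minus strand of build rn4, starting at base 981 of the transcript, and 1 of its 3 reading frames has no stop codon. Below it stand the 250 bases before the annotated start of Spp1 (chr14:5619805-5620054, minus strand) and of Gpnmb (chr4:79340878-79341127, plus strand) from RefSeq, build GRCr8, written 5′ to 3′. Capitals mark a match to TGANTCA, the letters that AP-1 factors prefer, and the rest is in lower case.
Spp1 probe: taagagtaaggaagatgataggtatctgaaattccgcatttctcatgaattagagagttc
Spp1 promoter: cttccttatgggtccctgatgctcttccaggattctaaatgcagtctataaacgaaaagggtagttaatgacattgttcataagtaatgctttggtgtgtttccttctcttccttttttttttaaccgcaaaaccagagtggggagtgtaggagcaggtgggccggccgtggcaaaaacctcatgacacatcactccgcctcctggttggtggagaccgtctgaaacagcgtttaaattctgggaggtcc
Gpnmb promoter: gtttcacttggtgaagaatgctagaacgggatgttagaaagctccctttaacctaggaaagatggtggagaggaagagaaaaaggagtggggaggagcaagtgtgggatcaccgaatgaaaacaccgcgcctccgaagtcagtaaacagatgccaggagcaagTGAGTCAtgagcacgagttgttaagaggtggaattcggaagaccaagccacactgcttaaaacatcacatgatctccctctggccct

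Promoters were listed for 6 of the 9 genes (Spp1, Gpnmb, Trem2, Cd36, Apoe and Plin2), as 9 entries since Apoe had 3 and Plin2 had 2. Each was searched on both strands, from 250 bases before to 50 after the start, for TGANTCA (AP-1), CACGTG (the E-box of MiT/TFE factors) and GAGGAAGT (PU.1), and for the DR1 repeat that PPARs read and the DR4 repeat that LXRs read, which share their half-site AGGTCA. The AP-1 letters were found in Gpnmb, from base -87 to base -81, and in Trem2, where TGAATCA spans the start from base -3 to base 4. The E-box letters were found in 1 of the entries of Plin2, from base -67 to base -62. No match to any of the 5 was in the Spp1 window. Of all 33469 promoters in the table, 7.33% held the AP-1 letters, 6.42% the E-box letters and 2.42% the PU.1 letters, while 18 held the DR1 repeat and 2 the DR4 repeat.

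All 9 probes were well above background on all 50 arrays and none was saturated on any. Spp1 was read by 10 spots per array, which differed by a median SD of 0.08 on the log2 scale. The arrays came from 7 slides. The 3 earlier days shared 4 slides and the 2 later days were read on 3 more. A single array departed from this, exposed replicate 1 of D3, which lay on a slide of the later days. Slide and day therefore cannot be told apart between early and late days. Every slide held control and exposed rats. The median gene signal ranged from 198 to 473 between arrays and the share of spots well above background from 68.7% to 84.5%. All values are quantile-normalized log2 signals, in which 1 unit is a doubling, and levels of different genes are not compared because each probe has its own brightness.

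Spp1 was higher in every exposed rat than in every control rat of its day, with folds of 5.28 (D0), 6.46 (D3), 3.84 (D28), 2.48 (D90) and 4.30 (D180). At D0 the control rats read 8.56, 7.99, 9.43, 9.20 and 8.26 and the exposed rats 11.16, 10.53, 11.51, 10.78 and 11.46. At D3 the control rats read 9.11, 8.83, 9.45, 8.86 and 9.33 and the exposed rats 11.44, 11.86, 11.56, 11.78 and 12.40. The lowest exposed rat thus stood more than 1 unit above the highest control at both early days. At D28 the control values were 9.36, 9.84, 8.85, 9.82 and 8.75 and the exposed values 10.86, 11.11, 11.30, 11.13 and 11.91. At D90 the control values were 9.07, 9.14, 9.38, 9.06 and 8.90 and the exposed values 9.54, 10.27, 10.95, 10.88 and 10.47. At D90 the groups came nearest, since replicate 1 of the exposed rats lay just above the controls. At D180 the control values were 7.89, 8.57, 7.68, 8.93 and 8.30 and the exposed values 10.59, 10.86, 10.26, 9.90 and 10.29.

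**Figure D1:**
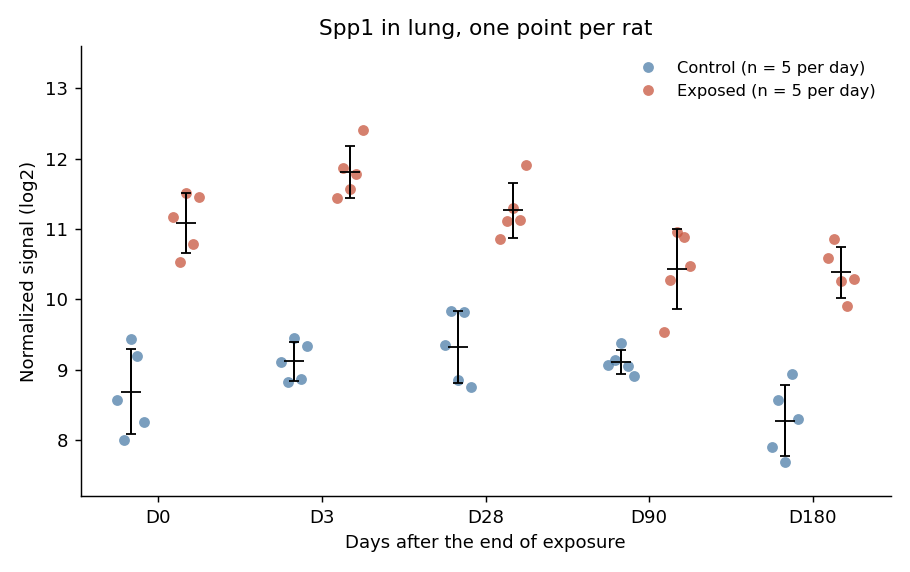
Spp1 in the lung of each rat. The y axis is the normalized log2 signal and the x axis the days after the end of exposure; points are rats (blue control, red exposed, 5 per group and day) and black bars are the mean and SD. All exposed rats lie above all control rats of the same day, with the smallest distance at D90.

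The differences in Spp1 were 2.40, 2.69, 1.94, 1.31 and 2.11 on the log2 scale from D0 to D180, each with an SE of 0.27 from the fit. Counted from the largest increase among the 25208 genes, Spp1 held places 27, 15, 24, 52 and 10 from D0 to D180. By the rule given below, 19 genes (0.0754%) were called higher at every day. Within slides the difference was above 0 on each slide that held both groups, from 1.46 to 3.52 over 4 slides at D0 and from 1.02 to 1.65 over 3 slides at D90.

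The order of the group means of Spp1 put the 5 exposed groups above the 5 control groups. Exposed D3 was highest (11.81 ± 0.37, mean ± SD, n = 5), followed by exposed D28 (11.26 ± 0.39), D0 (11.09 ± 0.43), D90 (10.42 ± 0.57) and D180 (10.38 ± 0.36). The steps from exposed D28 to D0 and from D90 to D180 were smaller than the SDs of the groups. Among controls the order was D28 (9.32 ± 0.51), D3 (9.12 ± 0.28), D90 (9.11 ± 0.17), D0 (8.69 ± 0.61) and D180 (8.28 ± 0.50), and no step between neighbours exceeded the larger SD of the pair. The difference of D180 thus rested on a control mean that was the lowest of all 10 groups, while its exposed mean was within the spread of that at D90.

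The question for the other 8 genes was whether they moved with Spp1. A gene was called when its change was at least 1.5-fold with an adjusted p under 0.05 by limma over all genes. At this rule 1 of the 8 was called at D0 and 1 at D3, Fabp5 each time and higher in exposed rats, while 0 were called at D28, D90 and D180. Among all genes 2.77%, 1.98%, 0.861%, 0.246% and 0.246% were called higher from D0 to D180, and 4.28%, 3.48%, 1.33%, 0.381% and 0.325% in either direction. At an unadjusted p under 0.05 with no fold limit, limma gave 7, 5, 5, 1 and 1 of the 8 from D0 to D180. Of these, Apoe at D0 and Lpl at D3 were lower in exposed rats. The share of all genes under that rule was not computed, here or for the lists below. Over the 8 the median difference was 0.35, 0.22, 0.25, 0.12 and 0.11 in the same order, beside medians between -0.01 and 0.00 over all genes. Of the 40 differences (8 genes at 5 days), 33 had a 95% interval that lay wholly within 1.5-fold in either direction.

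**Figure D2:**
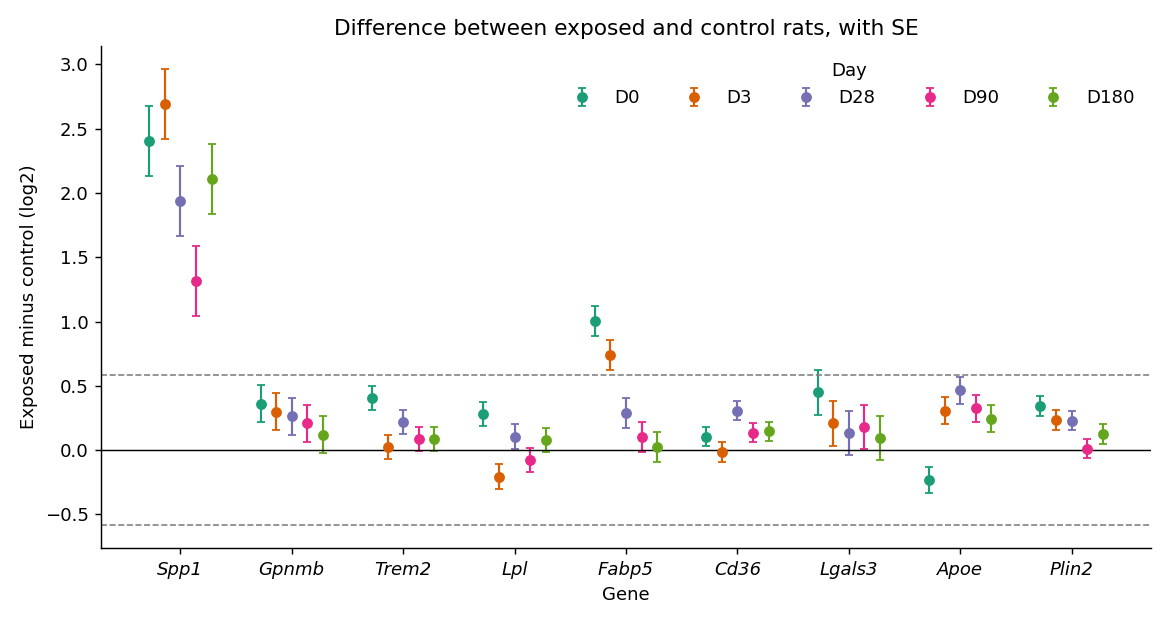
Exposed minus control for the 9 genes at each day. The y axis is the difference of group means on the log2 scale (n = 5 per group), bars are the SE of the fit, the solid line is 0 and the dashed lines are 1.5-fold. The 5 points of Spp1 lie between 1.31 and 2.69, and beyond the dashed lines otherwise are Fabp5 at D0 (1.01) and D3 (0.74).

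Fabp5, the carrier of fatty acids in macrophages and epithelium, rose at D0 and D3 and was called at no later day. At D0 the control rats read 16.29, 15.81, 15.86, 16.04 and 15.97 and the exposed rats 16.83, 17.22, 16.77, 17.24 and 16.94. At D3 the control values were 16.64, 16.69, 16.85, 16.89 and 16.19 and the exposed values 17.45, 17.55, 17.60, 17.20 and 17.17. All exposed rats lay above all controls at both days. The rise was 2.01-fold at D0 (log2 difference 1.01, SE 0.12, adjusted p = 8.3e-09 by limma) and 1.67-fold at D3 (0.74, adjusted p = 9.7e-06). The difference was 0.29 at D28 (adjusted p = 0.18), 0.10 at D90 (95% interval -0.13 to 0.34) and 0.03 at D180 (95% interval -0.21 to 0.26). The change in exposure effect relative to D0 was itself called at D28 (-0.72, adjusted p = 0.0064), D90 (-0.90, adjusted p = 0.00022) and D180 (-0.98, adjusted p = 6.9e-05), comparisons that share the D0 rats. Among all genes 0.678% were called, in either direction, for the change in effect from D0 to D3, where 0 of the 8 were called by limma and 3 had an unadjusted p under 0.05, then 1.61% to D28, 2.17% to D90 and 2.24% to D180. The D28 call was lost on the authors' processed values (-0.61, adjusted p = 0.054) and with the arrays of D0 and D28 alone (adjusted p = 0.077).

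Control rats differed in Fabp5 between D3 and D0, by 0.66 (adjusted p = 0.00011 by limma), so the difference at D0 was measured against the lowest control mean of the 5 days (15.99 ± 0.19, SD, n = 5). Among all genes 2.33% were called in this comparison, in either direction. In the same control rats Apoe differed by -0.49 (adjusted p = 0.0013) and Trem2 by 0.33 (adjusted p = 0.017), under the fold limit. Between the controls of D28 and D3, and of D180 and D90, 0 of the 8 were called by limma, 1 had an unadjusted p under 0.05 in each, and 0.639% and 0.0198% of all genes were called.

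Apoe, which encodes the apolipoprotein that carries lipid out of macrophages, differed between groups in opposite directions at D0 and D28. The control mean was 15.23 at D0 and 14.63 at D28, and the exposed mean 15.00 and 15.10. At D0 the control rats read 15.28, 15.06, 15.07, 15.35 and 15.41 and the exposed rats 15.29, 15.10, 14.81, 14.90 and 14.91. The groups overlapped, and the difference of -0.23 was not called (SE 0.10, adjusted p = 0.16 by limma). At D28 the control values were 14.45, 14.54, 14.81, 14.46 and 14.91 and the exposed values 14.92, 15.21, 14.95, 15.15 and 15.28. All exposed rats stood above all controls at D28, by a margin of 0.01 at the nearest pair, and the difference of 0.47 had an adjusted p of 0.0045 but was under the fold limit at 1.38-fold. At D180 the control values of 15.12, 15.11, 15.20, 15.16 and 15.27 all lay under the exposed values of 15.49, 15.39, 15.43, 15.43 and 15.34. That difference was 0.24 (adjusted p = 0.47), with the differences at D3 and D90 being 0.31 (adjusted p = 0.051) and 0.33 (adjusted p = 0.17).

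The exposure effect on Apoe at D28 exceeded that at D0 by 0.70 on the log2 scale, which was called (adjusted p = 0.0026 by limma). The effect at D90 exceeded it by 0.56 (adjusted p = 0.018), under the fold limit. This comparison passed the fold limit under 2 other ways of making the values, with normexp background correction (0.61) and on the authors' processed values (0.63), and when any 1 of 7 arrays was left out, with differences from 0.59 to 0.63. Those were control replicates 2 and 3 and exposed replicate 1 of D0, and control replicate 4 and exposed replicates 1, 2 and 5 of D90. Within slides Apoe was lower in exposed rats on 4 of 4 slides at D0 and higher on 3 of 3 at D28 and 2 of 3 at D90.

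**Figure D3:**
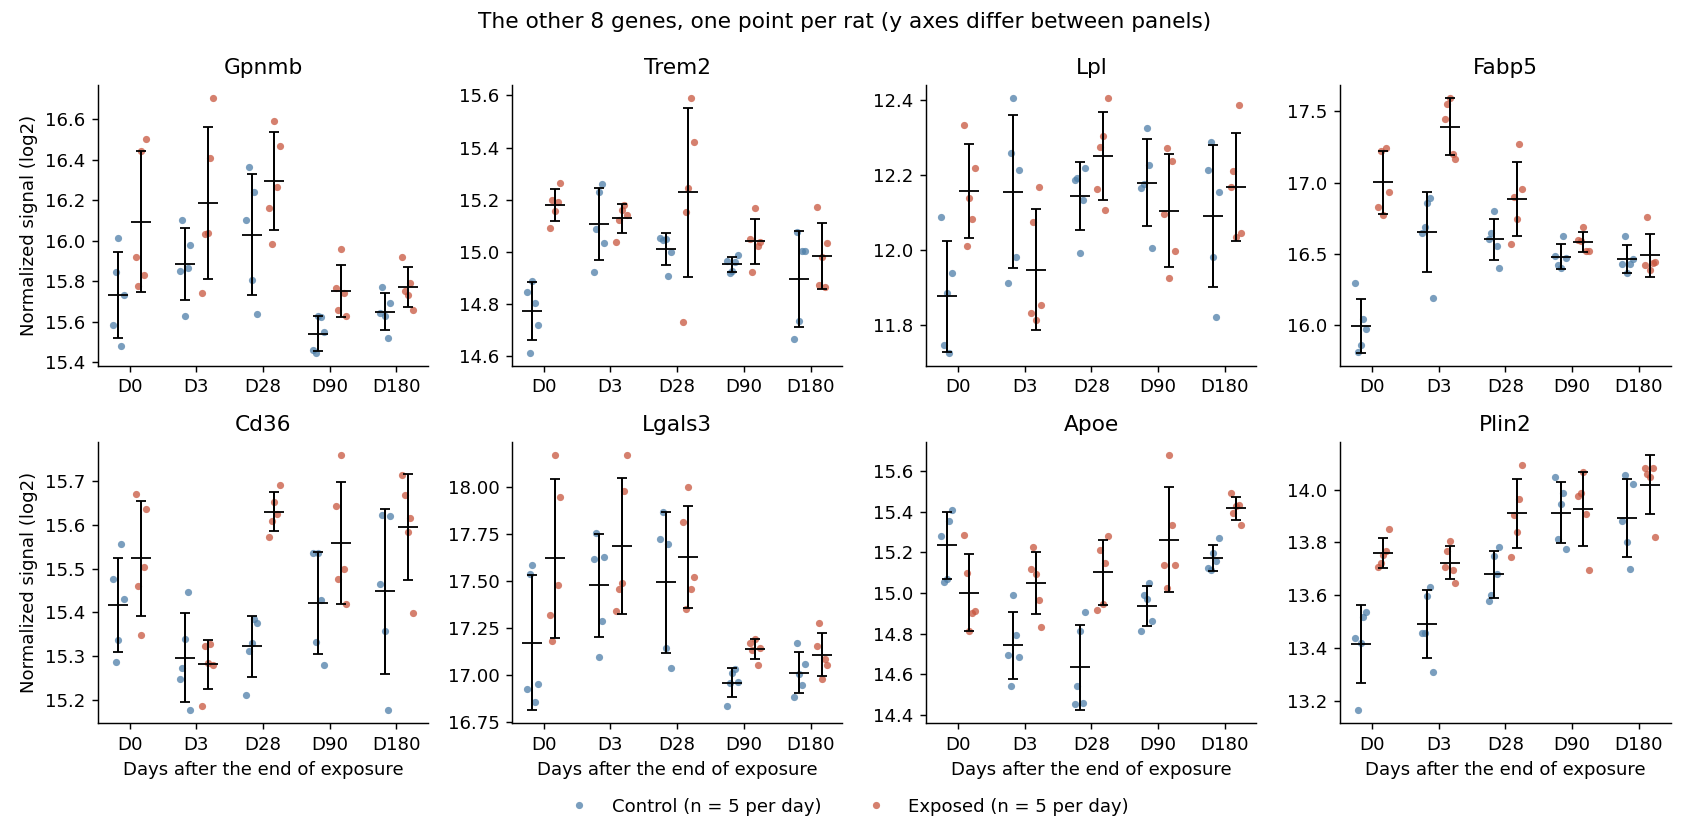
The other 8 genes in the lung of each rat. Each panel is a gene, with the normalized log2 signal on the y axis (scales differ) and days after the end of exposure on the x axis; points are rats (blue control, red exposed, 5 per group and day) and black bars are the mean and SD. Fabp5 separates the groups at D0 and D3, Apoe at D28 and D180, Cd36 at D28, Plin2 at D0 and D3, Trem2 at D0, and Gpnmb and Lgals3 by little at D90, while Lpl overlaps at every day.

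Plin2, the perilipin that coats lipid droplets, was higher in exposed rats by less than the fold limit. At D0 the control rats read 13.44, 13.17, 13.42, 13.52 and 13.54 and the exposed rats 13.71, 13.72, 13.75, 13.77 and 13.85, with no overlap. The difference was 0.34 at D0 (1.27-fold, adjusted p = 0.0012 by limma) and 0.23 at D3 (1.17-fold, adjusted p = 0.044), where the groups were also apart. It was 0.23 at D28 (adjusted p = 0.088), 0.01 at D90 and 0.13 at D180. The 95% interval at D90 ran from -0.14 to 0.17.

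Trem2, the lipid-sensing receptor, differed at D0. The control rats read 14.84, 14.61, 14.89, 14.80 and 14.72 and the exposed rats 15.09, 15.20, 15.16, 15.19 and 15.26. The groups were apart and the difference of 0.41 (1.33-fold) had an adjusted p of 0.0014 by limma. At D3 the difference was 0.02, with control values of 14.92, 15.09, 15.23, 15.26 and 15.03 around exposed values of 15.04, 15.12, 15.16, 15.18 and 15.14. The D3 controls had thus reached the level of the exposed rats, whose mean was 15.18 at D0 and 15.13 at D3. At D28 the 5 exposed values spread from 14.73 to 15.59, the widest range of any Trem2 group, and the difference of 0.22 was not called (adjusted p = 0.21 by limma). Without exposed replicate 4 it was 0.13 (adjusted p = 0.56) and without exposed replicate 1 it was 0.34 (adjusted p = 0.0058). At D90 and D180 it was 0.09 each.

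Cd36, a scavenger receptor and fatty acid transporter, had its groups apart at D28. The control values there were 15.21, 15.31, 15.33, 15.38 and 15.38 and the exposed values 15.57, 15.61, 15.65, 15.62 and 15.69. The difference of 0.31 (1.24-fold, adjusted p = 0.012 by limma) was under the fold limit, and the second Cd36 probe differed by 0.22, -0.08, 0.20, 0.17 and 0.24 from D0 to D180. At D0, D3, D90 and D180 the differences were 0.11, -0.02, 0.14 and 0.15, with 0.47 as the lowest adjusted p.

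Lpl, the lipase that frees fatty acids from circulating lipoproteins, overlapped between groups at every day and changed sign. Its difference was 0.28 at D0 (adjusted p = 0.042 by limma), -0.21 at D3 (adjusted p = 0.19), 0.11 at D28, -0.07 at D90 and 0.08 at D180. All 5 intervals lay within 1.5-fold, the widest reach being 0.47 at D0. The probe was read by 10 spots per array, with a median SD of 0.08 between them.

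Gpnmb and Lgals3, genes of the lysosome-rich macrophage state, were higher on average in exposed rats at every day. Slide accounted for 65.3% of the within-group variance of Gpnmb and 88.3% of that of Lgals3. The share was 67.5% for Cd36, 66.1% for Plin2, 61.8% for Apoe, 51.9% for Fabp5, 51.5% for Lpl, 27% for Trem2 and 12.8% for Spp1. At D0 the Gpnmb control values were 15.59, 15.85, 16.01, 15.48 and 15.73 and the exposed values 15.92, 15.78, 16.44, 15.83 and 16.50. They overlapped, and the difference of 0.36 was not called (SE 0.14, adjusted p = 0.096 by limma). With slide as a block it was 0.37 (SE 0.09, adjusted p = 0.0025). The differences of Gpnmb at the later days were 0.30, 0.26, 0.21 and 0.12, or 0.45, 0.34, 0.21 and 0.11 with slide as a block. Lgals3 differed by 0.45, 0.21, 0.13, 0.18 and 0.10 from D0 to D180, or by 0.44, 0.36, 0.27, 0.18 and 0.09 with the block, and all stayed under the fold limit.

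With slide as a block and no fold limit, a setting chosen after seeing the data, the adjusted p was under 0.05 for 7 of the 8 genes at D0 (6 higher, and Apoe lower). It was so for 5 at D3 and 5 at D28, all higher, and for Apoe alone at each of the 2 later days. Among all genes that setting passed 28.1%, 19.6%, 12.4%, 4.35% and 4.11%. Without a fold limit but also without the block the counts were 4, 2, 2, 0 and 0, all higher, beside 13.5%, 10.4%, 3.88%, 1.05% and 0.893% of all genes. With the fold limit, the block changed the count of called genes at no day.

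Of the 8 genes, all exposed rats lay above all controls for 3 at D0 (Trem2, Fabp5 and Plin2), 2 at D3 (Fabp5 and Plin2), 2 at D28 (Cd36 and Apoe), 2 at D90 (Gpnmb and Lgals3) and 1 at D180 (Apoe). Among all genes this held for 4.76%, 3.35%, 2.23%, 2.2% and 2.77%. No gene of the 8 was apart at every day, as Spp1 was by its choice.

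The genes were also compared rat by rat, by the deviation of each rat from its group mean, within the 25 exposed and the 25 control rats separately. Among exposed rats Gpnmb had Pearson's r = 0.61 (permutation p = 0.0013, adjusted p = 0.021 over 16 relations, two-sided) and Spearman's rho = 0.58 (permutation p = 0.0057, adjusted p = 0.092). The Pearson value passed the adjustment and the Spearman value did not. Without the 2 rats farthest from the median of Spp1, r was 0.66. On slides 1 to 4 it was 0.79 (14 rats), on slides 5 to 7 it was 0.29 (10 rats, leaving out the D3 rat read there), and with slide means also removed it was 0.68.

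**Figure D4:**
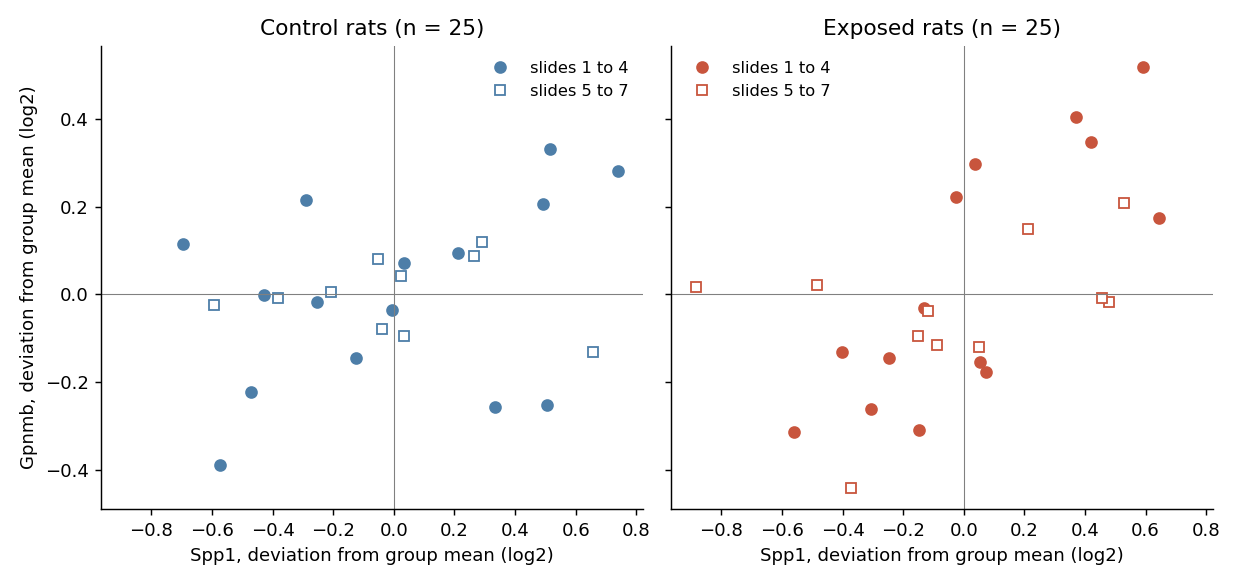
Deviation of Gpnmb (y axis) against that of Spp1 (x axis) from the group mean, log2, for 25 control rats (left) and 25 exposed rats (right); filled circles are arrays of slides 1 to 4 and open squares those of slides 5 to 7. The points of the exposed rats rise together (r = 0.61), more on slides 1 to 4 than on slides 5 to 7, and those of the control rats scatter (r = 0.28).

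Among control rats r for Gpnmb was 0.28 (adjusted p = 0.67), and 0.0065 with slide means removed. The other 14 relations of Spp1 with a gene had r between -0.21 and 0.45 and none passed the adjustment by either measure. The nearest were Lgals3 in exposed rats (r = 0.44, permutation p = 0.029, adjusted p = 0.23) and Trem2 in control rats (r = 0.45, permutation p = 0.056, adjusted p = 0.30). Fabp5, the gene that rose with Spp1 at D0 and D3, had r = -0.15 among exposed rats. With slide means removed, r in exposed rats ran from 0.52 to 0.68 for every gene except Lpl (-0.01), so that for Fabp5 the sign turned. In control rats it was then 0.61 for Trem2, 0.39 for Lpl and between -0.17 and 0.06 for the others. The values with slide means removed were not tested.

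Genes whose 5 differences came nearest to those of Spp1, by root mean square distance on the log2 scale over the 5 days, were Kng1 (0.35), Kng1l1 (0.44), Mmp7 (0.47), Scn10a (0.51), Upk3bl (0.54), Tmem45b (0.63), Retnla (0.67), Tmprss9 (0.68), Gsg1 (0.68) and RGD1309110 (0.68). Kng1 and Kng1l1 are closely related kininogen genes whose probes may share signal. None of the 10 was among the 8 macrophage genes. Of those, Fabp5 stood nearest at place 509 and Lpl farthest at place 9344 of the ranking. Mmp7, an epithelial metalloproteinase, differed by 1.71, 2.12, 1.51, 1.18 and 1.78 from D0 to D180, and Scn10a, a sodium channel of sensory neurons, by 1.56, 2.12, 1.56, 0.97 and 2.15.

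**Figure D5:**
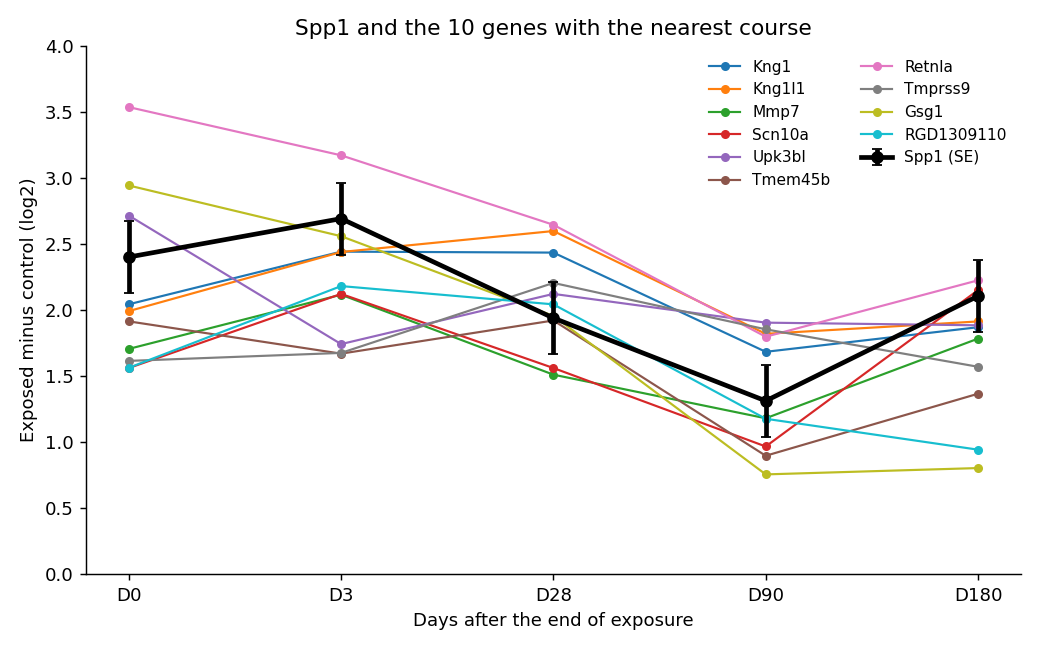
Exposed minus control (y axis, log2) at each day (x axis) for Spp1, in black with the SE, and the 10 genes with the smallest distance to it. The genes were picked for resembling Spp1, and the lowest point is that of Gsg1 at D90 (0.76).

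The molecules that act on osteopontin split into proteases and receptors. Of 5 proteases known to cut it (F2, Mmp3, Mmp7, Mmp9 and Mmp12), 3 rose at D0, 2 at D3 and 1 at each later day. Among all genes 2.77%, 1.98%, 0.861%, 0.246% and 0.246% were called higher from D0 to D180. Mmp7 rose at every day (adjusted p from 6.3e-09 at D3 to 0.0031 at D90). Mmp12, the macrophage elastase, rose from 9.05 ± 0.44 to 10.66 ± 0.20 at D0 (SD, n = 5, difference 1.61) and from 9.81 ± 0.39 to 11.01 ± 0.19 at D3. F2, which encodes prothrombin, rose by 1.07 at D0. Of 9 tested receptors of osteopontin (Cd44 and integrin subunits), 0 were called at any day by limma, although 8, 4, 2, 0 and 0 had an unadjusted p under 0.05 from D0 to D180. Their differences ran from -0.50 (Itga9) to 0.52 (Itga4) at D0 and from -0.10 to 0.08 at D180. The 4 other members of the SIBLING family of bone matrix proteins (Ibsp, Dmp1, Mepe and Dspp) were not called at any day, with an unadjusted p under 0.05 for 1, 1, 1, 0 and 0 of them, and with slide as a block Ibsp (0.64 without the block) was called at D0.

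Of 8 tested partners of lipoprotein lipase, 2 were called at D0, 3 at D3 and 0 at the later days, with list medians of -0.07, -0.01, 0.01, 0.05 and -0.04 from D0 to D180. In either direction 4.28%, 3.48%, 1.33%, 0.381% and 0.325% of all genes were called. An unadjusted p under 0.05 by limma was held by 2, 5, 1, 0 and 2 of the 8. Gpihbp1, which holds the lipase on capillary endothelium, fell by 1.24 at D0 (adjusted p = 3.8e-11 by limma). Angptl4, which inhibits the lipase, rose by 0.86 at D0 and 1.04 at D3. Apoc1 rose by 1.17 at D3 and Vldlr fell by 0.67 at D3. Slide as a block left Vldlr at -0.48, under the fold limit. Of the endothelial markers, 2 fell with Gpihbp1 at D0, Cldn5 by 0.87 and Tek by 0.59, of 6 tested, the latter falling by 0.58, under the fold limit, with slide as a block. The mean level of those 6 markers ran from 13.31 to 13.47 in control rats at D0 and from 12.76 to 12.98 in exposed rats. At D180 it ran from 13.32 to 13.47 and from 13.03 to 13.30. Exposed rats also lay below all controls at D3, D28 and D90. An unadjusted p under 0.05 by limma was held by 4, 6, 3, 3 and 3 of the 6 from D0 to D180. The part of this shift in the values of Gpihbp1 and Spp1 was not tested.

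Among 10 genes of Trem2 signalling and shedding, Card9, an adaptor of immune receptors, rose by 0.64 at D0 and 0.65 at D3. The remainder were not called, and the median of the list was 0.26, 0.32, 0.21, 0.15 and 0.09 from D0 to D180. Over all 10, the mean was higher in exposed rats for 9, 8, 10, 8 and 6 genes. An unadjusted p under 0.05 by limma was held by 6, 8, 6, 2 and 1 of the 10. Of 20 tested genes of fatty acid uptake and lipid droplets only Acsl4, which activates long polyunsaturated fatty acids, was called, with rises of 0.72 at D0 and 0.75 at D3. In that list 8, 7, 2, 4 and 2 genes had an unadjusted p under 0.05 by limma from D0 to D180. Of 15 genes of cholesterol handling only Ch25h, which makes 25-hydroxycholesterol, was called, at D0 (0.79), and with slide as a block also at D28 (0.71). There 7, 5, 2, 0 and 4 of the 15 had an unadjusted p under 0.05 by limma from D0 to D180. Of 8 scavenger receptors tested 0 were called, with an unadjusted p under 0.05 by limma for 4, 3, 1, 1 and 1 of them. Lgals3bp, the galectin-3 binding protein, rose by 0.66 at D3 among 9 genes of the galectin list, where Lgals4 was called too with slide as a block (1.05), and Tfec, of the 4 MiT/TFE factors, by 0.74 at D0.

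Of 19 other tested genes reported for lipid-associated macrophages, 5 rose at D0, 3 at D3, 1 at D28 and 0 at D90 and D180, where 6 and 4 had an unadjusted p under 0.05 by limma. At D0 these were Atp6v0d2, a subunit of the lysosomal proton pump (1.21), Ctsk, a cathepsin (0.92), Mmp14 (0.85), Il1rn, the antagonist of the interleukin-1 receptor (0.79), and Cst7 (0.63). At D3 Il1rn (0.72), Mmp14 (0.67) and Cst7 (0.66) rose, and at D28 Atp6v0d2 (0.63). Among all genes 2.77%, 1.98%, 0.861%, 0.246% and 0.246% were called higher from D0 to D180. At the shares of D90 and D180 a list of 19 would hold few or no calls. With slide as a block Cd68 (0.68 at D0) and Atp6v0d2 (0.61 at D3) were called as well, while Cst7 at D3 (0.52) was under the fold limit. The list median was 0.33, 0.23, 0.21, 0.14 and 0.10 from D0 to D180, close to the medians of the 8 genes, and both lists were beside a median near 0 over all genes.

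The lung is a mixture of cells, and in bulk RNA more cells of a type and more RNA per cell cannot be told apart. All 7 general macrophage markers were well above background on all arrays. Of these only Itgam was called, with rises of 0.81 at D0, 0.93 at D3 and 0.74 at D28, and with slide as a block Cd68 was called at D0 as well. At D0 and D3 the mean was higher in exposed rats for 4 of the 7, and Mertk had the lowest differences (-0.34 and -0.35). The mean level of these 7 markers ran from 11.52 to 11.81 in control and from 11.74 to 12.21 in exposed rats at D0, and from 11.84 to 11.99 and from 11.80 to 11.99 at D180. Of 6 alveolar macrophage markers 0 were called at any day by limma, with an unadjusted p under 0.05 for 2, 4, 1, 1 and 1 of them. Of 6 monocyte markers Ccr2 (1.14), Cd14 (0.92) and Vcan (0.70) rose at D0 and Cd14 (0.83) at D3, with list means of 8.998 to 9.36 in control and 9.84 to 9.91 in exposed rats at D0. Of 7 neutrophil markers S100a9 rose by 1.69 at D0, 1.68 at D3 and 0.88 at D28, and S100a8 by 1.37 at D0 and 1.56 at D3. At D90 and D180, 0 markers of macrophages, monocytes, neutrophils or lymphocytes were called by limma. Among all genes 0.381% and 0.325% were called at those days, in either direction. With so small a share, lists of this size would hold few or no calls. An unadjusted p under 0.05 was held by 1 macrophage and 1 neutrophil marker at D90. At D180 it was held by 2 macrophage, 1 neutrophil and 2 lymphocyte markers. Markers of fat and of alveolar type 2 cells were called at no day by limma, with an unadjusted p under 0.05 for at most 3 and 4 of 7, and 6 of the 7 fat markers were not well above background on all arrays. The mean level of the type 2 markers at D0 ran from 15.77 to 15.88 in control and from 15.95 to 16.08 in exposed rats. Exposed rats were also above all controls at D3 and D28, while the groups overlapped at D90 and D180. The slide block added 1 fat marker, Ucp1, at D0 (1.11). In the other marker lists, Cd79b (lymphocytes) rose by 0.68 at D0, and Hopx (alveolar type 1 cells) fell by 0.65, Upk3b by 0.60 and Wt1 by 0.71 (mesothelium) at D3. With slide as a block these 3 falls were under the fold limit, at -0.47, -0.56 and -0.54, and Cd3d (0.59, lymphocytes, D0), Aqp5 (-0.59) and Rtkn2 (-1.20, both alveolar type 1 cells, D3) and Myl7 (-0.64, heart muscle, D28) were called. The Rtkn2 probe was dim, being well above background on 21 of the 50 arrays. The part of these cell markers in the values of Spp1 and Fabp5 was not tested.

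Among 7 genes that respond to fasting and to PPAR-alpha, Pdk4 fell by 1.15 at D0 (adjusted p = 0.048 by limma). The Pdk4 probe was dim, being well above background on 36 of the 50 arrays. Ucp3 fell by 0.71 at D3 (adjusted p = 0.017 by limma), and by 0.52, under the fold limit, with slide as a block. Acot1, a thioesterase of acyl-CoA, rose by 1.08 at D28, 1.57 at D90 and 1.92 at D180 (adjusted p = 2.1e-06). Cpt1a, which brings fatty acids into mitochondria, rose by 0.61 at D180 (adjusted p = 5.4e-05). The part of these genes in the values of the 9 was not tested.

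Clock genes differed between exposed and control rats in a direction that turned between D3 and D28. Both groups shifted: the mean level of the list went from 9.77 to 8.81 in control rats and from 9.08 to 9.54 in exposed rats. The cause of the turn was not tested. Dbp, an output gene of the circadian clock, differed by -1.95, -2.49, 3.27, 3.36 and 2.97 from D0 to D180, and 7, 8, 9, 9 and 8 of 10 clock genes were called at the 5 days. Among all genes 4.28%, 3.48%, 1.33%, 0.381% and 0.325% were called in either direction. Spp1 was chosen for being higher in exposed rats at every day, so its direction on both sides of the turn was fixed beforehand. The part of the clock genes in the differences between days was not tested.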

How the data were processed

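Lung RNA of 50 rats was labelled with Cy3 and hybridized, 1 rat per array, on Agilent one-colour rat arrays of 62976 spots. Per the file headers, the deposited intensity values are spot signals read by Agilent Feature Extraction 11.0.1.1 (version from the submitters' processing notes), which removed local background and spatial trend but did not scale arrays to each other. The authors also deposited a table of processed intensity values, whose medians ran from 407.64 to 411.28 between arrays. These were used as an alternative after taking log2.

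From the deposited spot intensities, spots flagged as outliers and control spots were left out, log2 signals were averaged per probe and quantile normalized, and 29549 probes were kept, those that passed on 5 or more arrays a limit set at the 95th percentile of negative control spots. The brightest probe stood for a gene with several, giving 25208 genes, of which 3843 had more than 1 probe. limma 3.58.1 in R 4.3.3 fitted 10 group means with a shared spread, and p-values were adjusted by Benjamini-Hochberg over all genes. A gene was called at 1.5-fold and an adjusted p under 0.05. The batch terms that the study removed are not named in the sources used here, so slide served as an alternative. Nothing in the labels ties a number to a shared litter or cage, and p-values measure the spread between rats. The precision is limited by 5 arrays per group.

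Correlations were computed in scipy 1.17.1 with 100000 permutations. Scripts were tested on simulated data, with known changes put in at D0 and D28. Of changes of 1.25-fold, 2% were called at D0 and 0% at D28. For 1.5-fold changes it was 22% at both days, and for 2-fold changes 80% and 72%. A gene that was not called may therefore still have changed. The 9 genes and all lists were chosen with earlier results of these data known. Named were the 9 genes, list genes called at any day (up to 4 per list and day by size), the 10 genes nearest to Spp1 by root mean square distance, and, after their values were seen, the ends of some ranges and Ibsp. Alternatives were normexp correction with an offset of 50, 75th percentile scaling, 2 other filters, the mean of all probes, the authors' processed values, slide or replicate number as a block, other call rules, only the days compared, and leaving out each array. Slide as a block without a fold limit was added after seeing the data. Elderly rats of the study were not analysed here.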

Additional observations from a re-analysis of the deposited data

Results flagged for a closer look

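Within groups of 5 rats, 2 values lay far from the others by Dixon's criterion, which chance meets in about 1 in 20 groups. Fabp5 read 16.76 in exposed replicate 2 of D180, while the other rats of that group averaged 16.42. Plin2 read 13.82 in exposed replicate 5 of D180, against an average of 14.07 in the others.

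The exposure effect differed between days for 2 genes. That on Fabp5 was lower than at D0 by -0.72 at D28, -0.90 at D90 and -0.98 at D180 on the log2 scale (limma adjusted p = 0.0064, 0.00022 and 6.9e-05), and that on Apoe was higher at D28 by 0.70 (limma adjusted p = 0.0026). These comparisons share the D0 rats, and the early and late days lay on different slides except for 1 array.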

How the results depend on the processing

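With the fold limit, the count of called genes among the 8 was 1, 1, 0, 0 and 0 from D0 to D180 under every alternative run, each array left out included. Without the fold limit it was 4, 2 and 2 at D0, D3 and D28, 2 for the change in effect from D0 to D90, and 3 for control lungs of D3 against D0. Among all genes 13.5%, 10.4%, 3.88%, 3.77% and 7.36% passed in these comparisons, in the same order. With slide as a block and no fold limit, the count was 7, 5, 5, 1 and 1 from D0 to D180, beside 28.1%, 19.6%, 12.4%, 4.35% and 4.11% of all genes. It was 2, 4 and 5 for the change in effect from D0 to D3, D90 and D180, beside 3.84%, 13.3% and 13.5% of all genes. For control lungs of D3 against D0 and of D28 against D3 it was 4 and 1, beside 18.9% and 5.21%. The change in effect from D0 to D3 was called for 1 gene, Apoe, with normexp correction (0.60) and on the authors' processed values (0.66), and for 0 to 1 genes when an array was left out (exposed replicate 1 of D0, control replicate 3 and exposed replicate 5 of D3). That to D28 was called for 1 gene on the authors' processed values and with only the days compared, as Fabp5 was lost. That to D90 was called for 2 genes with normexp correction and on the authors' processed values, and for 1 to 2 when an array was left out. The cause of these shifts was not tested. Of 3837 values under alternatives 35 became weaker and 97 stronger. These include counts of called genes in the lists, so most of these shifts are not calls of a followed gene. Among the followed genes only Fabp5 lost calls, in 2 values. Calls were gained by Apoe (7 values, and 10 with an array left out), Trem2 (2), Plin2 (2), Lpl (1) and Cd36 (1). Spp1 was not tested and held no call. No called value changed sign (0 reversed), while some uncalled values near 0 did, such as the difference of Cd36 and of Trem2 at D3 and the change in the effect on Gpnmb from D0 to D3.

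Replicate numbers did not pair the rats: of 25 same-numbered pairs 8 correlated above 0.1 (range -0.34 to 0.45), and 7 exposed arrays were nearest to the control of their own number. With the replicate number as a block, the counts stayed at 1, 1, 0, 0 and 0, and at 0, 2, 1 and 1 for the changes in effect. All 9 genes were well above background on all 50 arrays.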
